A study of Mus musculus with 24 samples.

Results

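The comparison described here set multipotent progenitor 3 cells (MPP3) against hematopoietic stem cells (HSC) within young TTPΔARE mice, a genotype with a stabilized Zfp36 mRNA. It was chosen by library title alone and holds 8 of the 24 libraries of the series, 4 of Y-TTPΔARE MPP3 and 4 of Y-TTPΔARE HSC. All 8 came from the bone marrow of untreated, young adult, homozygous male mice, whose Zfp36 gene lacks an AU-rich stretch of the 3′ untranslated region (UTR) in every cell, so that the change is not limited to blood cells. HSC were sorted as LSK cells (lineage-negative, Sca-1-positive, Kit-positive) that were CD34- Flk2- CD150+, and MPP3 as LSK cells low or negative for Flk2 that were CD150- CD48+. The 4 Y-WT MPP3 and 4 Y-WT HSC libraries of littermates, sorted by the same gates, are given only where they show whether a difference between the cell types was itself different in TTPΔARE. No label ties a library to an animal, so the p-values below measure the spread between these libraries, which may in part be technical. The HSC and MPP3 libraries carry separate runs of library numbers, so that cell type and library set cannot be told apart.

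Tristetraprolin (TTP), the protein of Zfp36, binds AU-rich elements in the 3′ UTR of mRNAs and recruits the CCR4-NOT complex, which shortens the poly(A) tail and starts decay. TTP mRNA carries such an element itself, and TTP thereby limits its own message. HSC are the mostly quiescent cells at the top of blood formation, and MPP3 are their cycling, myeloid-biased progeny, which give rise mainly to granulocytes and monocytes. Same-numbered HSC and MPP3 libraries varied together, mainly as replicates 1 and 2 against replicates 3 and 4. A fit with the replicate number as a block is therefore given beside each call that it changed. In bulk libraries, fewer cells of a kind and less RNA per cell cannot be told apart.

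Depth was alike in the groups, with 31045922 to 36142535 counts in the HSC and 28633531 to 35591578 in the MPP3 libraries. Mitochondrial genes took 0.75 to 0.98% of counts in HSC and 0.78 to 1.40% in MPP3, with the highest share in MPP3 replicate 4. On the first principal component over all tested genes, which held 48.6% of the variance, MPP3 replicate 3 (score -50.0) and HSC replicate 1 (3.38) lay away from their groups, whose other scores ran from 76.7 to 130.2 and from -96.7 to -85.7. Olfactory and vomeronasal receptor genes, usually silent in blood cells, summed to 270.2 CPM, which are counts scaled to a library total of 1000000, in MPP3 replicate 3 against 36.1 to 54.9 in the other MPP3 libraries, and to 44.5 CPM in HSC replicate 1 against 166 to 197 in the other HSC libraries. With 13318 better expressed genes, without receptor and antigen receptor segment genes, the first component (71.0%) separated the groups, with HSC at -58.4 to -48.3 and MPP3 at 39.0 to 66.9, and MPP3 replicate 4 lay apart on the second (13.4%) at -50.6. Counts of calls with these libraries left out, and the named genes whose call rested on 1 library, stand in the closing section. The study itself used 3 of the 4 Y-TTPΔARE MPP3 libraries.

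Zfp36 lies on the minus strand at chr7:28376784-28380253 of GRCm38, the assembly also named mm10, and has 2 exons. Its annotated 3′ UTR of 774 bases holds the TTP nonamer TTATTTATT 1 time and the core heptamer TATTTAT 3 times. The nonamer is shown in capitals, since it is the element type by which TTP can bind its own message; its exact relation to the deleted stretch is not given in the sources used here.
Zfp36, chr7:28376952-28376978, 589 bases after the stop codon: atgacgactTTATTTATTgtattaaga
In Y-TTPΔARE HSC replicates 1 to 4, Zfp36 stood at 110, 90.9, 83.0 and 94.0 CPM, and in MPP3 at 112, 97.5, 77.6 and 99.9 CPM. The groups overlapped, with means of 94.4 ± 11.1 (SD, n = 4) in HSC and 96.9 ± 14.4 (SD, n = 4) in MPP3. The log2 fold change of MPP3 over HSC was 0.04 (SE 0.14, adjusted p = 0.91).

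With all 16 young libraries on one scale, Zfp36 measured 88.1 to 115 CPM in Y-TTPΔARE HSC, 76.0 to 115 in Y-TTPΔARE MPP3, 31.1 to 74.2 in Y-WT HSC and 19.7 to 36.0 in Y-WT MPP3. Thus every TTPΔARE library lay above every WT library, in both cell types. In Y-WT, the log2 fold change of MPP3 over HSC was -0.75 (SE 0.28, adjusted p = 0.078). The difference between the genotypes in this step was 0.77 (SE 0.34) and did not pass the test (unadjusted p = 0.040, adjusted p = 0.43). Its paralogs did not pass either, with Zfp36l1 at 21.0 ± 2.65 and 18.8 ± 4.45 CPM and Zfp36l2, the most abundant of the family by CPM, at 710 ± 85.1 and 564 ± 82.9 CPM in HSC and MPP3 (SD, n = 4), although Zfp36l2 was called lower with the replicate block (adjusted p = 0.0499).

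**Figure D1:**
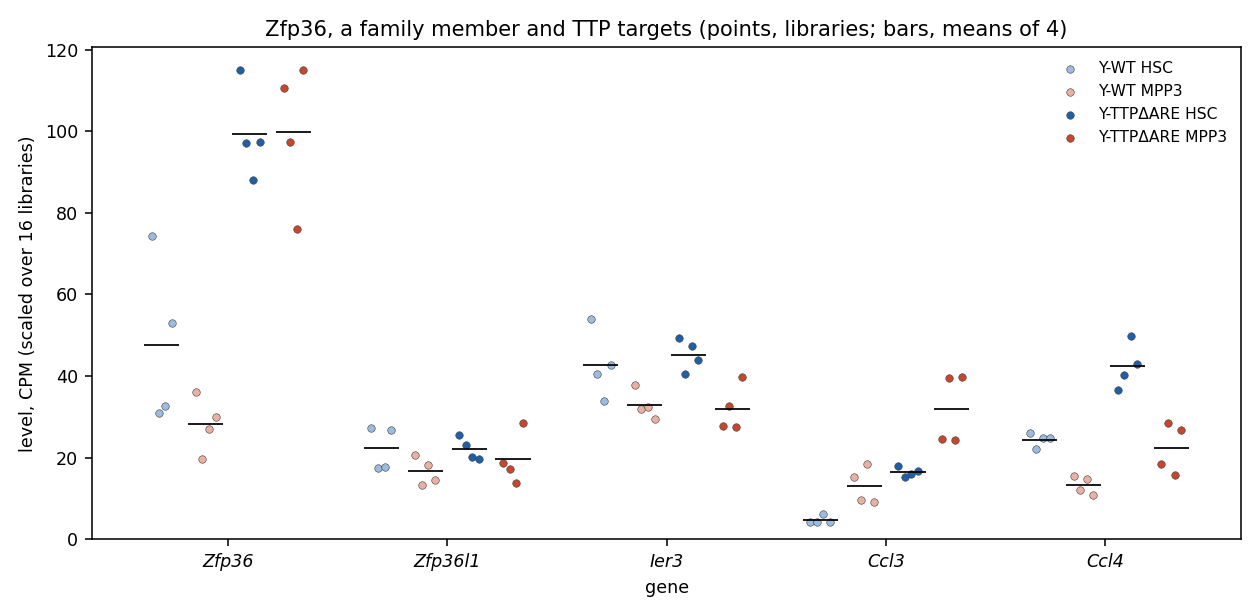
Zfp36, its paralog Zfp36l1 and 3 mRNAs listed as TTP targets in the 16 young libraries, as CPM on a linear axis that starts at 0; points are libraries and bars are means of 4. Zfp36 lay at 76.0 to 115 CPM in the 8 TTPΔARE libraries and at 19.7 to 74.2 CPM in the 8 WT libraries, with no separation of the TTPΔARE cell types.

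The genes of the sort gates followed the gates for the most part. Slamf1, which encodes CD150, measured 77.5, 75.2, 70.9 and 81.0 CPM in the HSC libraries and 0.93, 2.36, 1.78 and 1.17 CPM in the MPP3 libraries, a log2 fold change of -5.60 (SE 0.27, adjusted p = 2e-06). Cd48 rose from 9.78 to 19.5 CPM in HSC to 120 to 217 CPM in MPP3 (3.51, SE 0.25, adjusted p = 1.6e-05). Cd34 rose from a mean of 272 ± 27.4 to 1244 ± 29.1 CPM (SD, n = 4), so its mRNA was present in the CD34- sort. Flt3, which encodes Flk2, measured 55.4 to 66.4 CPM in HSC and 614 to 721 CPM in MPP3, although MPP3 were sorted as low or negative for the protein. Its log2 fold change of 3.40 (SE 0.11) had the smallest adjusted p of the comparison (6.9e-07).
Both cell types were sorted as positive for Kit and Sca-1, and neither Kit nor Ly6a, the gene of Sca-1, passed the test. Kit stood at 1280 to 1312 CPM in HSC and at 921, 1101, 1072 and 457 CPM in MPP3, so that replicate 4 was low, and Ly6a at 247 to 274 and 170 to 301 CPM. Without MPP3 replicate 4, 2 genes of the gates were called lower rather than 1.

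Across all genes, 21478 were tested, of which 13358 passed the average level limit (log2 CPM over 1.5). A gene was called when its adjusted p was under 0.05 and its fold change over 1.2. By these limits, 1949 genes (14.6%) were called higher and 1551 (11.6%) lower in MPP3 than in HSC, of which 267 and 292 differed by more than 4-fold. Of the called genes, 1859 higher and 1510 lower ones had no overlap between the 4 MPP3 and the 4 HSC libraries. The median log2 fold change over the limit was 0.04. The share of calls that were higher was 55.7% and fell to 36.7% when libraries were compared by their total counts without TMM scaling, which moved the median to -0.11. In Y-WT, 3314 of 13433 genes (24.7%) were called higher and 1755 (13.1%) lower in MPP3. Of the 13078 genes over the limit in both genotypes, 1449 were called higher in both, 1127 lower in both and 23 in opposite directions.

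**Figure D2:**
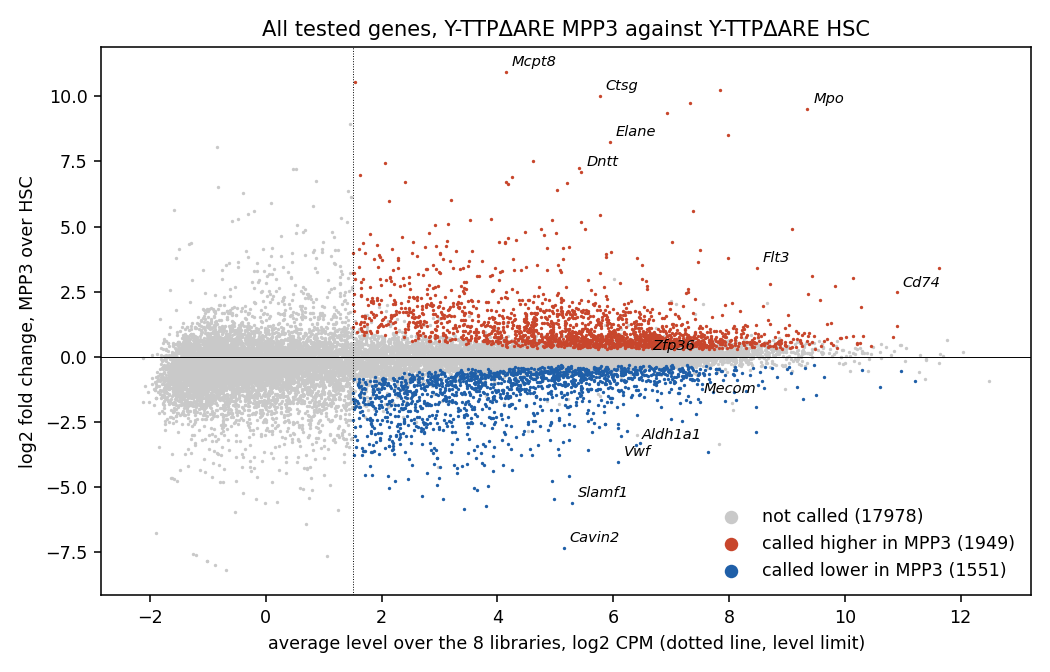
Log2 fold change of Y-TTPΔARE MPP3 over HSC against the average log2 CPM for the 21478 tested genes; red points were called higher, blue points lower, and the dotted line is the level limit of 1.5. Granule genes such as Mpo, Elane and Ctsg lay at the top and Cavin2, Slamf1 and Vwf at the bottom, while Zfp36 lay at 0.04.

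Whether the step differed by genotype was tested as an interaction over the 16 young libraries. Of 13467 genes, 101 (0.75%) had a more positive MPP3 to HSC difference in TTPΔARE than in WT and 12 (0.0891%) a more negative one, and 2356 had an unadjusted p under 0.05. Of these 113 genes, 86 were also called higher and 13 lower in the TTPΔARE comparison, and 12 of the 101 were called higher in WT as well. Most of the genes named below were thus not shown to differ by genotype. The 29 named genes that passed the interaction test are listed near the end, and WT values are given below for only part of them.

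HSC identity genes fell together. Of 32 members over the limit, 29 were called lower in MPP3, none was called higher, and the median log2 fold change was -1.76, against 0.04 for all genes. Mecom, a transcription factor that HSC need for self-renewal, measured 273, 274, 263 and 257 CPM in HSC and 95.2, 109, 87.0 and 57.0 CPM in MPP3 (-1.62, SE 0.18, adjusted p = 0.00019). Its libraries did not overlap between the cell types. Mllt3, which sustains HSC in culture, fell from 248 ± 8.97 to 44.7 ± 8.74 CPM (SD, n = 4), and Cdkn1c, a cyclin-dependent kinase inhibitor of quiescent HSC, from 69.1 ± 3.70 to 11.0 ± 1.80 CPM.
Larger falls were those of Clca3a1 (-4.22, SE 0.69), Neo1 (-4.16, SE 0.63), Vwf (-4.01, SE 0.31) and Nupr1 (-3.75, SE 0.20). Fgd5, a reporter gene for HSC, fell by 2.16 on the log2 scale (SE 0.22), and Procr, the endothelial protein C receptor, by 1.08 (SE 0.13). The smallest called difference was that of Hlf, with 473 to 529 CPM in HSC and 325 to 414 CPM in MPP3 (-0.43, SE 0.10, adjusted p = 0.016). Hoxb4, Hoxa9 and Ifitm3 were not called. In Y-WT, 27 members were called lower and none higher, and no member of the list was called in the interaction.

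**Figure D3:**
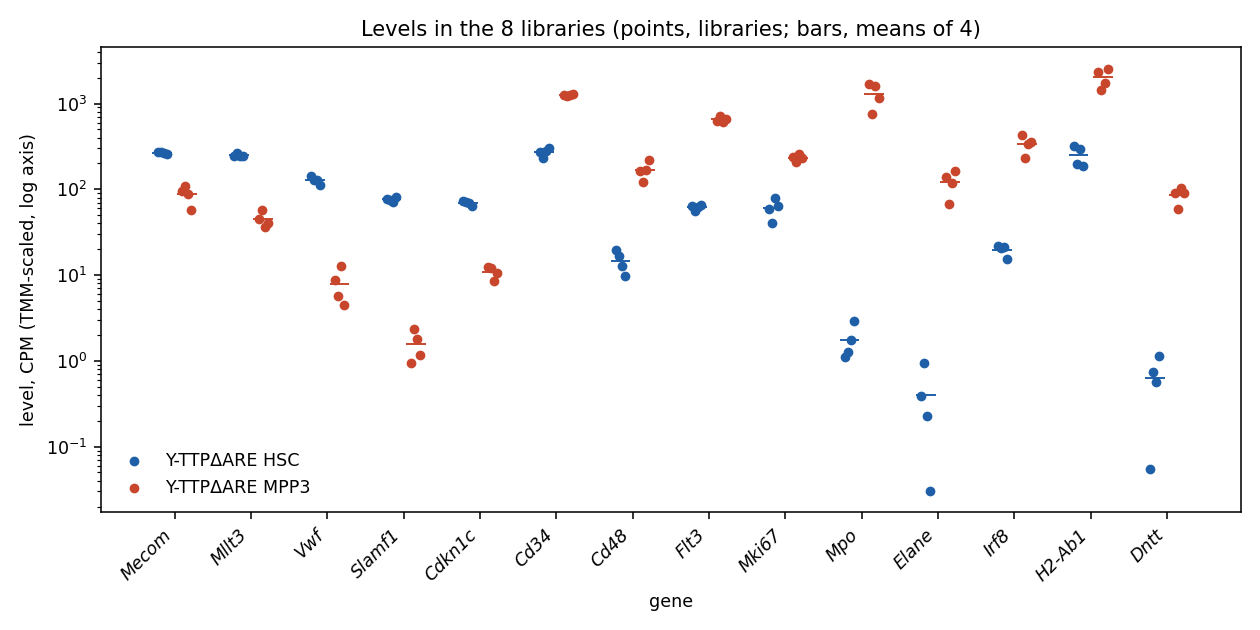
Levels of 14 genes in the 8 libraries as TMM-scaled CPM on a log axis; points are libraries and bars are means of 4. From Mecom to Cdkn1c every HSC library lay above every MPP3 library, and from Cd34 to Dntt every MPP3 library lay above every HSC library.

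Of 9 Hox genes over the limit, which set positional and stem cell programs, 6 were called lower and none higher. Of all genes 11.6% were called lower and 14.6% higher. Without HSC replicate 1 or 2 the Hox count called lower was 3. Hoxb5, a marker of long-term HSC, fell from 10.7 to 15.2 CPM to 1.55 to 2.75 CPM (-2.75, SE 0.24, adjusted p = 5.2e-05), and Hoxb2 from 15.2 to 22.4 CPM to 4.48 to 8.28 CPM. Hoxa9, in contrast, measured 130 ± 5.86 CPM in HSC and 139 ± 19.6 CPM in MPP3 (SD, n = 4; adjusted p = 0.67). Hoxa10 (-0.76, SE 0.19), Hoxa3, Hoxa5 and Hoxb3 were the other members called lower. Hoxa5 did not pass with the replicate block (adjusted p = 0.059).

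Genes of transport, detoxification and vitamin A handling held 13 members called lower and 1 called higher of 29, with a median of -0.41. Of all genes 11.6% were called lower and 14.6% higher. Without any 1 of the HSC libraries 7 or 8 members were called lower. Aldh1a1, which makes retinoic acid, measured 155, 132, 168 and 156 CPM in HSC and 11.7, 13.0, 15.4 and 18.8 CPM in MPP3 (-3.38, SE 0.17, adjusted p = 2e-06). Rarb, a retinoic acid receptor that is itself induced by retinoic acid, fell from 19.9 to 29.0 CPM to 0.86 to 1.76 CPM (-4.15, SE 0.25), and the sulfotransferase gene Sult1a1 from 160 ± 32.9 to 16.1 ± 5.60 CPM (SD, n = 4). Cyp26b1, which degrades retinoic acid, was among the 10 strongest falls of all genes, from 11.5 to 21.8 CPM in HSC to 0 to 0.58 CPM in MPP3. Abcg2, the efflux pump behind the side population of HSC, fell from 174 ± 7.51 to 92.7 ± 7.97 CPM (SD, n = 4; -0.91, SE 0.10, adjusted p = 0.00019), whereas its relative Abcb1b stood at 49.4 to 58.3 and 49.3 to 62.6 CPM and did not pass the test. Abca1 did not pass either (31.6 to 37.4 and 15.8 to 37.3 CPM), and Gstm2 (-2.53, SE 0.29) and Abca5 (-2.30, SE 0.38) fell. The member called higher was Gpx1, a glutathione peroxidase, at 929 ± 138 and 1624 ± 542 CPM.

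Megakaryocyte and platelet genes were mostly lower in MPP3, with 14 of 18 called lower, 1 called higher and a median of -1.62. Cavin2, a caveola coat gene of platelets and endothelium, fell most of all named genes, from 76.8, 75.0, 72.9 and 56.3 CPM in HSC to 0.68, 0.54, 0.41 and 0.07 CPM in MPP3 (-7.33, SE 0.38, adjusted p = 2.4e-06). Vwf, the platelet adhesion factor that marks platelet-biased HSC, stood at 111 to 144 CPM in HSC and 4.47 to 12.8 CPM in MPP3. Pf4, a platelet chemokine, fell from 43.4 ± 10.1 to 17.6 ± 1.55 CPM (SD, n = 4). Gp9, Treml1 and Itgb3 fell too, by 1.62, 3.50 and 2.35 on the log2 scale. Rab27b, of granule release, fell by 2.02. Itga2b, the integrin subunit CD41, was not called (79.1 ± 18.1 and 57.5 ± 11.0 CPM, adjusted p = 0.14), and Plek was called higher (1.24, SE 0.18).

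Among 19 erythroid genes, 8 were called lower and 3 higher, against 11.6% and 14.6% of all genes, with a median of -1.09. The higher count was thus near the share of all genes. Without HSC replicate 1 or 3 only 5 were called lower. Gata1, the master factor of erythroid and megakaryocyte fate, measured 20.1, 8.06, 20.1 and 17.3 CPM in HSC and 6.22, 2.86, 3.53 and 3.47 CPM in MPP3 (-2.03, SE 0.33, adjusted p = 0.0019). Epor, the erythropoietin receptor, fell by 2.64 (SE 0.20). Aqp1, Rhag, Ermap and Mfsd2b fell by 2.95, 2.91, 2.65 and 2.35. Car1, an erythroid carbonic anhydrase, showed 276, 83.4, 175 and 70.4 CPM in HSC and 55.0, 19.4, 0.58 and 1.58 CPM in MPP3. These groups did not overlap, but with a spread this wide the log2 fold change of -2.98 (SE 1.09) did not pass the test (adjusted p = 0.091). Klf1 did not pass either (-1.72, SE 0.58, adjusted p = 0.067). With the replicate block both were called lower, at adjusted p = 0.020 for Car1 and 0.029 for Klf1. The members called higher were Hbb-bt, Tfrc and Cd36, and without HSC replicate 2 or MPP3 replicate 1 none was, while without HSC replicate 4 it was 1. Cd36 was also called in the interaction, where TTPΔARE exceeded WT by 4.37 on the log2 scale.

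Endothelial and stromal markers, listed as a check on the sort, were also lower in MPP3, with 9 of 11 called lower and 1, Pdgfrb, called higher. HSC share many of these genes with endothelium. Tie1 fell from 202 ± 14.5 to 77.1 ± 13.9 CPM, Emcn from 42.6 ± 3.57 to 21.3 ± 5.02 CPM and Cldn5 from 19.8 ± 3.26 to 1.10 ± 0.20 CPM (SD, n = 4). Sox18, Stab2, Fabp4 and Kdr fell by 3.34, 2.97, 2.56 and 2.88 on the log2 scale. Kdr fell further in Y-WT (-7.66, SE 0.78), and the genotypes differed by 4.69 in the interaction test (SE 0.93, adjusted p = 0.033). Cdh5, which defines endothelium, stood at 3.05 to 5.11 CPM in HSC and 0.06 to 1.17 CPM in MPP3 (-2.99, SE 0.66, adjusted p = 0.011), below the level limit. Cxcl12, the stromal chemokine, stood at 1.72 to 5.02 and 0.82 to 2.61 CPM, also below the level limit. On the joint scale the list summed to 438 to 517 CPM in Y-TTPΔARE HSC and 142 to 190 CPM in Y-TTPΔARE MPP3.

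Cell cycle genes rose nearly as a block. Of 51 S-phase genes, 48 were called higher in MPP3 and none lower (median 1.07), and of 50 G2 and mitosis genes 47 were called higher and none lower (median 1.56). Mki67, the proliferation antigen, measured 59.0, 40.2, 78.4 and 63.4 CPM in HSC and 241, 206, 255 and 231 CPM in MPP3 (1.95, SE 0.19, adjusted p = 8.2e-05). Every MPP3 library stood above every HSC library. Top2a, which untangles replicated DNA, rose from 132 ± 26.0 to 449 ± 72.0 CPM, and Cdk1, the mitotic kinase, from 52.2 ± 11.3 to 168 ± 61.0 CPM (SD, n = 4).
The largest rises of these lists were those of Ube2c (2.22, SE 0.28), Birc5 (2.09, SE 0.28) and Aurkb (2.04, SE 0.23) in mitosis and of Rrm2 (1.85, SE 0.23) and Tk1 (1.75, SE 0.24), both of nucleotide synthesis, in S phase. The replication helicase gene Mcm2 rose from 208 ± 30.6 to 380 ± 35.6 CPM (0.87, SE 0.13). Pcna, Tyms, Brip1, E2f8, Gmnn, Ccnb1 and Bub1 rose by 1.03 to 1.99 on the log2 scale. In Y-WT all 51 S-phase genes and 49 of the mitosis genes were called higher.

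The G1 machinery split. Of 29 members, 14 were called higher and 5 lower, against 14.6% and 11.6% of all genes. Without HSC replicate 2 or 4 the lower count was 3. Cdk6, the kinase by which HSC leave quiescence, rose from 85.2 to 119 CPM to 241 to 388 CPM (1.52, SE 0.17, adjusted p = 0.00017), and E2f2 rose by 1.68 (SE 0.15). Brakes moved in both directions. Cdkn1c, Rb1, Foxo1 and Txnip fell, Txnip from 2150 ± 136 to 970 ± 127 CPM, whereas Cdkn1a, Cdkn2c and Btg2 rose, Btg2 from 23.7 ± 3.43 to 81.6 ± 13.5 CPM (SD, n = 4). Cdkn1b did not pass (14.6 to 17.2 and 10.1 to 16.2 CPM), and neither did Ccnd1, at 31.0 to 41.6 CPM in HSC and 42.8, 25.3, 29.3 and 80.8 CPM in MPP3.

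Primary granule genes, the first products of neutrophil and monocyte precursors, held 12 of 17 members called higher and 1 lower, with a median of 2.23. Mpo, myeloperoxidase, measured 1.11, 1.28, 1.77 and 2.92 CPM in HSC and 1704, 764, 1599 and 1160 CPM in MPP3 (9.53, SE 0.44, adjusted p = 2e-06). Elane, neutrophil elastase, rose from 0.40 ± 0.40 to 123 ± 41.0 CPM, and Ctsg, cathepsin G, from 0.10 ± 0.12 to 109 ± 48.3 CPM (SD, n = 4). All of these were near absent from every HSC library and highly expressed in every MPP3 library.
Prtn3, a protease gene of the same granules, was already present in HSC, at 107, 89.6, 136 and 125 CPM, and measured 186, 119, 170 and 247 CPM in MPP3 (0.66, SE 0.21, adjusted p = 0.057, and 0.014 with the replicate block). Plac8 (3.81, SE 0.36), Ms4a3 (5.31, SE 0.52) and Clec12a (4.90, SE 0.32) rose, as did Cst7 (3.29, SE 0.37), and Gstm1 was the member called lower (-0.65, SE 0.16). In Y-WT, 11 members were called higher. The interaction called 1 member, Igsf6, which was named after its values were seen.

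The list of later neutrophil genes held both low and well expressed members. Of 9 members over the limit, 5 were called higher and 1 lower, and with the replicate number as a block 3 were called higher and 2 lower. Without any 1 of the HSC libraries 2 or 3 were called higher. S100a8 stood at 3.22 to 4.70 CPM in HSC and at 5.47, 5.79, 42.1 and 9.83 CPM in MPP3, with replicate 3 far above the other MPP3 libraries (adjusted p = 0.044, and 0.10 with the replicate block). The defining markers Ltf, Camp and Ngp were likewise highest in MPP3 replicate 3, at 6.73, 16.0 and 15.4 CPM, and did not pass the test. Itgam (2.05, SE 0.25) and Anxa1 (0.69, SE 0.15) rose in all 4 MPP3 libraries above the HSC libraries, and the gelatinase gene Mmp9 fell (-3.03, SE 0.82). The part of such cells in the calls of this list was not tested.

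Myeloid transcription factors were mixed, with 10 of 22 called higher and 3 lower, against 14.6% and 11.6% of all genes. Without MPP3 replicate 1, 6 were called higher. Cebpa, required for granulocyte and monocyte commitment, measured 1.39, 0.56, 0.56 and 1.38 CPM in HSC and 19.5, 12.2, 15.6 and 12.6 CPM in MPP3 (3.94, SE 0.35, adjusted p = 5.4e-05). Spi1, which encodes PU.1, rose from 74.7 ± 3.12 to 159 ± 18.7 CPM (SD, n = 4), and Gfi1, a repressor of the granulocyte line, by 0.75 (SE 0.19). Cebpe, of later granulocytes, was below the level limit, at 0.06 to 0.24 and 0.52 to 2.99 CPM. Mycn fell from 424 ± 52.0 to 134 ± 32.5 CPM while Myc rose from 369 ± 56.7 to 498 ± 38.7 CPM (adjusted p = 0.041).
Irf8, which drives monocyte and dendritic fate, stood at 21.7, 20.9, 21.0 and 15.4 CPM in HSC and 430, 233, 336 and 361 CPM in MPP3 (4.10, SE 0.21, adjusted p = 2.2e-06). Klf4, a monocyte factor, rose from 0.22 to 1.14 CPM to 4.36 to 6.03 CPM (3.20, SE 0.47).

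Of 21 monocyte and dendritic cell genes, 17 were called higher and 1 lower with a median of 2.07, while in Y-WT 9 were called higher and 4 lower. Csf1r, the receptor that sustains monocytes, rose from 13.9 ± 1.79 to 47.6 ± 15.9 CPM, and Ly6c2 from 27.0 ± 13.1 to 165 ± 56.6 CPM (SD, n = 4). F13a1, coagulation factor XIII of monocytes, measured 0.19 to 1.05 CPM in HSC and 144, 23.3, 94.9 and 29.9 CPM in MPP3. The interaction called 5 members of this list. Itgax, the integrin CD11c, rose by 5.24 (SE 0.36), more than in Y-WT by 3.44 on the log2 scale, and Mpeg1, perforin 2, by 5.19 (SE 0.60). Ly86 (4.90, SE 0.37) and Cx3cr1 (3.71, SE 0.49) rose likewise. Ccr2, the chemokine receptor of inflammatory monocytes, rose from 8.78 to 17.2 CPM to 120 to 185 CPM (3.79, SE 0.25), and its rise was larger than in Y-WT by 2.42 on the log2 scale (SE 0.35, adjusted p = 0.0031).

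Genes of MHC class II, by which professional antigen-presenting cells show peptides to T cells, rose in MPP3 of TTPΔARE and differed from WT. All 11 members over the limit were called higher in Y-TTPΔARE MPP3 (median 2.18), against 3 higher and 3 lower in Y-WT, and 7 were called in the interaction. H2-Ab1, the beta chain of I-A, measured 317, 196, 291 and 188 CPM in HSC and 2348, 1441, 1716 and 2559 CPM in MPP3 (3.02, SE 0.24, adjusted p = 2.8e-05). Cd74, the invariant chain, rose from 578 ± 143 to 3220 ± 767 CPM, and Ciita, the master regulator of the class, from 15.6 ± 2.52 to 71.0 ± 13.7 CPM (SD, n = 4). H2-Aa (2.40, SE 0.25), H2-DMb2 (2.17, SE 0.20) and Ctss, the protease that trims the invariant chain (2.07, SE 0.17), rose in step.
On the scale of all 16 young libraries, H2-Ab1 stood at 195 to 333 CPM in Y-TTPΔARE HSC, 138 to 202 in Y-WT HSC and 166 to 216 in Y-WT MPP3, and the difference between genotypes was 2.90 (SE 0.31, adjusted p = 0.00027). Ciita fell in Y-WT (-0.70, SE 0.14) and rose in TTPΔARE (2.18, SE 0.17), a difference of 2.85 (SE 0.22) with the smallest adjusted p of the interaction (2.1e-05). The summed level of the list was 6119 to 12036 CPM in Y-TTPΔARE MPP3 and 919 to 1991 CPM in the other young groups. H2-Ob, another MHC class II gene, rose in both genotypes, by 2.99 (SE 0.11) in TTPΔARE and 2.63 (SE 0.24) in WT.

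**Figure D4:**
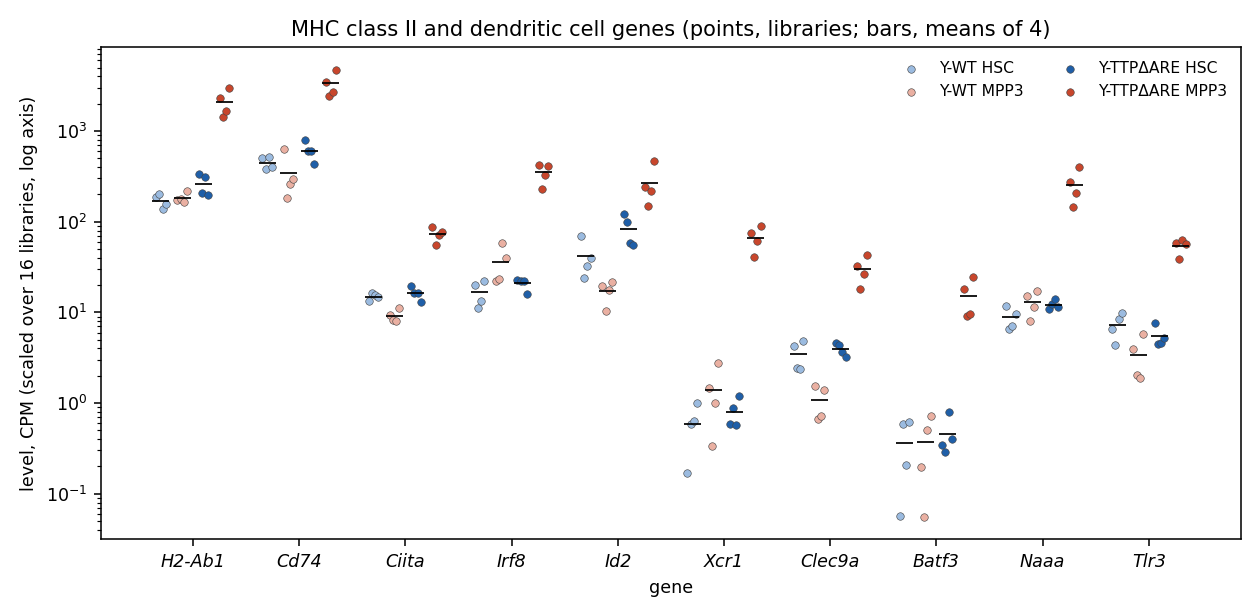
MHC class II and dendritic cell genes in the 4 young groups as CPM scaled over 16 libraries, on a log axis; points are libraries and bars are means of 4. In each of these genes all 4 Y-TTPΔARE MPP3 libraries lay above the other 12 libraries, as with H2-Ab1 at 1437 to 2945 CPM against 138 to 333. All genes shown were among those called in the interaction, so they do not stand for their lists. H2-Ob, which rose in both genotypes, is not shown.

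Genes of type 1 conventional dendritic cells, a list drawn up after these values were seen and therefore a description only, moved with MHC class II. Of 18 members 17 were called higher in Y-TTPΔARE MPP3, against 4 in Y-WT, and 12 were called in the interaction. Xcr1, the chemokine receptor that defines these cells, measured 0.55, 0.83, 0.53 and 1.14 CPM in HSC and 75.6, 41.2, 63.3 and 77.3 CPM in MPP3 (6.39, SE 0.31, adjusted p = 2e-06). In Y-WT MPP3 it stood at 0.33 to 2.77 CPM on the joint scale, and the genotypes differed by 5.13 (SE 0.74, adjusted p = 0.0030). Batf3 and Id2, factors that these cells require, Clec9a, their dead cell receptor, and Naaa, an acid amidase, behaved alike, with interaction values of 5.01 (SE 0.94), 2.94 (SE 0.54), 4.60 (SE 0.46) and 3.83 (SE 0.41), although Batf3 did not pass with HSC and MPP3 paired by number (adjusted p = 0.061). Plbd1 rose by 5.60 (SE 0.25).
Toll-like receptors, listed after the fact as well, were called higher for 5 of 8 members, among them Tlr3 (3.34, SE 0.23), Tlr7 (3.33, SE 0.33), Tlr11 (6.71, SE 0.56) and Tlr13 (6.01, SE 0.39), while Tlr2, Tlr4 and Tlr6 were not called. Tlr3 stood at 38.8 to 62.6 CPM in Y-TTPΔARE MPP3 and 1.88 to 5.74 CPM in Y-WT MPP3 on the joint scale. Irf8 differed by 2.96 (SE 0.42, adjusted p = 0.0030), although it rose in Y-WT too (1.119, SE 0.33). Whether a subset of the sorted cells carried these transcripts was not tested, since the libraries are bulk.

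The strongest rises of all genes included granule genes of another lineage. Mcpt8, a protease of basophils, had 2 counts in all HSC libraries together and measured 62.0, 14.3, 46.7 and 18.3 CPM in MPP3. Prss34, another basophil protease, rose from 0.26 ± 0.15 to 48.9 ± 22.2 CPM (SD, n = 4; 7.53, SE 0.52), and Cma1, a mast cell chymase, stood at 0 to 0.12 CPM in HSC and 10.5, 4.41, 1.201 and 8.04 CPM in MPP3. In a list of 10 basophil and mast cell genes made after these values were seen, 6 were called higher and 3, Gata2, Mitf and Il4, lower. Il4 fell from 14.1 to 17.6 CPM to 1.37 to 3.26 CPM (-2.88, SE 0.25). Ms4a2, a chain of the IgE receptor, rose by 4.24 (SE 0.65).
The 10 strongest falls were those of Cavin2, Smtnl1, Clu, Slamf1, Cyp26b1, Adgrg2, Rhoj, Evc2, Ncam2 and Efna1. Clu, the secreted chaperone clusterin, fell from 33.1, 22.6, 28.8 and 24.3 CPM in HSC to 0.06, 0.42, 0.28 and 1.31 CPM in MPP3 (-5.73, SE 0.57, adjusted p = 0.00011). Rhoj, a small GTPase, fell from 23.4 to 25.6 CPM to 0.14 to 1.85 CPM (-5.10, SE 0.58), and Efna1, an ephrin ligand, from 25.7 to 28.5 CPM to 0 to 1.79 CPM.
Other genes among the 10 strongest rises were Gpr33, Dntt, Ifi205 and Ighg3. Ighg3, an immunoglobulin constant gene, measured 256, 1.31, 502 and 524 CPM in MPP3 and under 1 CPM in every HSC library, with replicate 2 close to the HSC libraries.

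Lymphoid priming genes rose in part, with 11 of 20 called higher, none lower and a median of 1.06. Dntt, terminal transferase of early lymphoid cells, measured 0.06, 0.74, 0.56 and 1.14 CPM in HSC and 91.0, 58.5, 104 and 89.8 CPM in MPP3 (7.11, SE 0.52, adjusted p = 1.7e-05). Rag2 (3.99, SE 0.49, with an average level just at the limit and below it under the replicate block) and Satb1 (1.94, SE 0.17) rose as well. Cd52, a lymphocyte surface gene, rose by 2.62 (SE 0.31). Ighm, the immunoglobulin mu chain, stood at 17.2, 730, 717 and 693 CPM in HSC and 9066, 9326, 3120 and 1696 CPM in MPP3 (3.43, SE 0.94, adjusted p = 0.030, and 0.077 with the replicate block), with HSC replicate 1 far below the others. Il7r, the receptor of committed lymphoid progenitors, was not called (1.55 to 6.48 and 0.96 to 4.21 CPM), and Rag1 was at 0.06 to 1.35 CPM in all 8 libraries.
Mature B and plasma cell genes, a check on contamination, showed 1 of 14 called higher, Cd22, and none lower. Of all genes 14.6% were called higher and 11.6% lower. Jchain, the joining chain of plasma cells, stood at 3145, 3106, 952 and 1643 CPM in HSC and 2684, 4084, 432 and 749 CPM in MPP3, and Cd79a was spread in the same manner. In both genes replicates 1 and 2 of each cell type were above replicates 3 and 4. Ms4a1 was under 16 CPM throughout.

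T and NK cell genes were lower in MPP3, with 8 of 15 called lower and 1, Klrd1, higher, at a median of -2.27. Cd3e, a defining T cell gene, measured 26.6, 25.2, 8.19 and 11.5 CPM in HSC and 0.81, 2.57, 0.51 and 0.03 CPM in MPP3, and Trac 6.55 to 23.3 and 0.19 to 1.40 CPM. Cd3d, Cd3g, the NK receptor gene Klrb1c and Il2rb fell by 4.74, 3.63, 2.77 and 2.64 on the log2 scale. In all 4, as in Cd3e, HSC replicates 1 and 2 were above HSC replicates 3 and 4. On the joint scale the list summed to 106 to 341 CPM in Y-TTPΔARE HSC, 43.2 to 80.5 CPM in Y-TTPΔARE MPP3, 54.5 to 114 CPM in Y-WT HSC and 13.9 to 26.0 CPM in Y-WT MPP3. The part of such cells in the genes called lower was not tested.

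**Figure D5:**
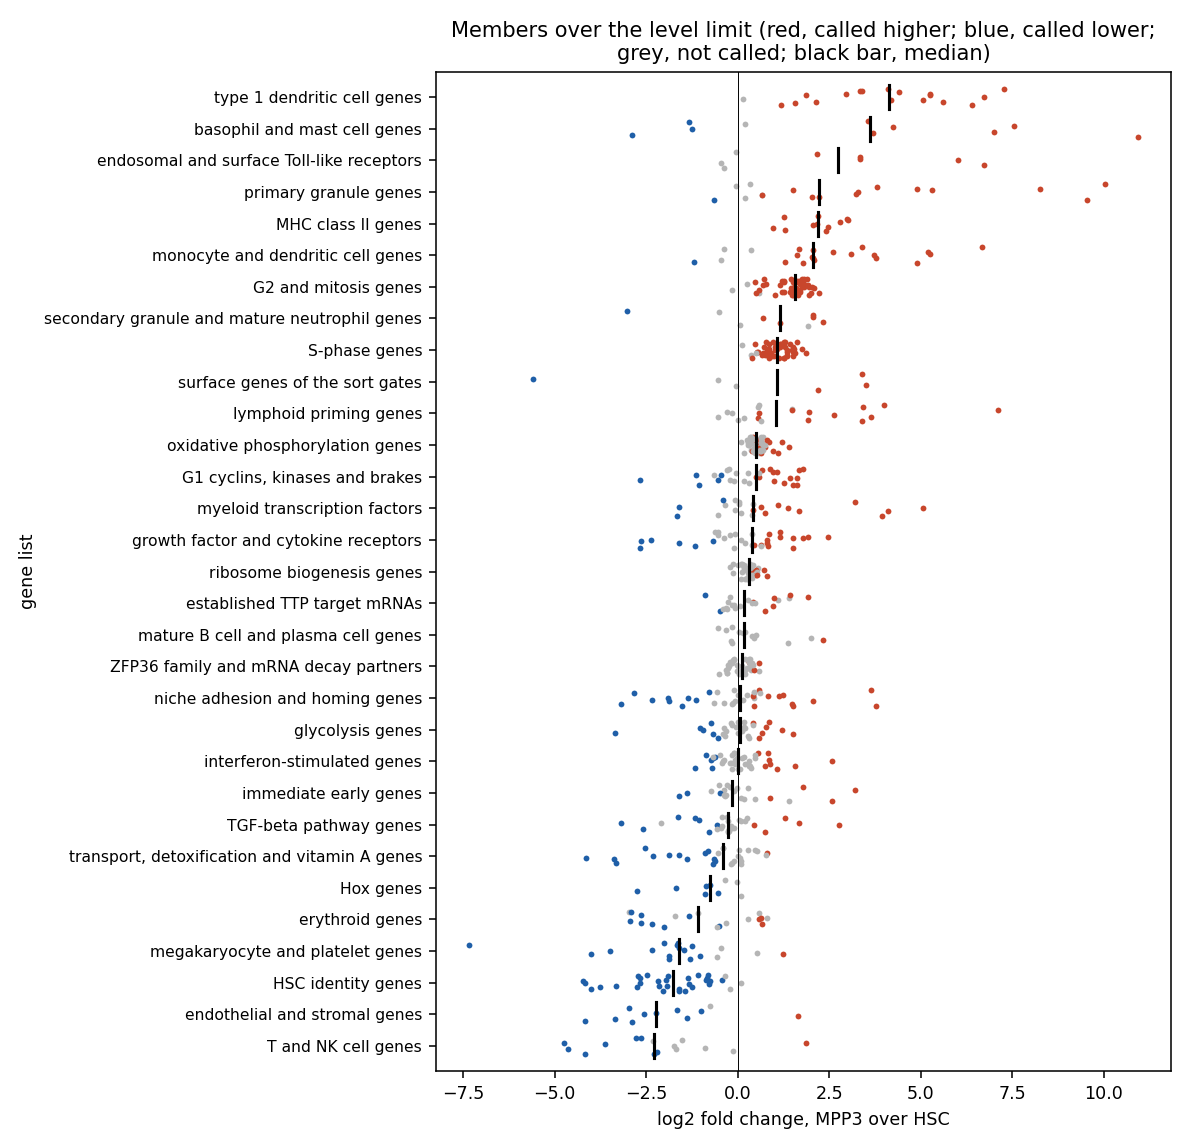
Log2 fold change of Y-TTPΔARE MPP3 over HSC for members of the 31 gene lists over the level limit, with lists ordered by their median; red points were called higher, blue lower and grey not called. Medians ran from -2.27 for T and NK cell genes to 4.14 for type 1 dendritic cell genes. The type 1 dendritic cell, basophil and mast cell, and Toll-like receptor lists were drawn up after the values were seen. Among the other lists the largest median was 2.23, for primary granule genes.

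Among 31 growth factor and cytokine receptors, 13 were called higher and 6 lower, against 14.6% and 11.6% of all genes. Among those called higher were Csf2rb, the shared beta chain for IL-3 and GM-CSF, from 19.5 ± 1.74 to 55.4 ± 11.1 CPM, Csf3r, for G-CSF, from 71.5 ± 4.69 to 158 ± 19.5 CPM, and Il6ra from 13.6 ± 0.97 to 30.2 ± 6.35 CPM (SD, n = 4). Il10ra rose by 2.45 (SE 0.12). Epor, Tek, Osmr, Il6st and Tnfrsf1b were among those that fell, with Tek, the angiopoietin receptor of the niche, going from 86.5 to 102 CPM to 9.95 to 17.7 CPM (-2.68, SE 0.18, adjusted p = 1e-05).

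Adhesion and homing genes were exchanged rather than shifted, with 11 of 34 called higher, 9 lower and a median of 0.07. Of all genes 14.6% were called higher and 11.6% lower. Without HSC replicate 4 or MPP3 replicate 1, 7 members were called higher. Ccr2 was among the largest rises, and Jam2 (-3.18, SE 0.42), Jam3 (-2.84, SE 0.27), both junctional adhesion molecules of HSC, and Itgb3 among the largest falls. Selp, P-selectin, fell from 41.6 ± 5.13 to 11.4 ± 3.15 CPM (SD, n = 4). Cxcr4, the receptor for the niche chemokine CXCL12, rose a little, from 26.2 to 33.1 CPM to 37.8 to 49.0 CPM (0.45, SE 0.13, adjusted p = 0.036, and 0.066 with the replicate block), and Itga4, which binds VCAM-1, did not pass (0.01, SE 0.12).

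The TGF-beta pathway, which keeps HSC quiescent, held 5 of 30 members called higher and 7 lower, against 14.6% and 11.6% of all genes. The lower count was 3 or 4 without HSC replicate 2, 3 or 4. The receptors Tgfbr1 (0.20, SE 0.17) and Tgfbr2 (-0.10, SE 0.16) and the inhibitor Smad7 (-0.43, SE 0.23) were not called. Tgfbr3, the co-receptor betaglycan, measured 123, 119, 118 and 104 CPM in HSC and 16.8, 19.8, 26.0 and 15.3 CPM in MPP3 (-2.57, SE 0.17, adjusted p = 1e-05). Its fall was steeper than in Y-WT (-1.34, SE 0.11), by -1.27 (SE 0.19, adjusted p = 0.0037). Tgfb1, the ligand, rose from 85.3 ± 7.30 to 143 ± 8.79 CPM (SD, n = 4), Lrrc32, which holds latent TGF-beta at the surface, fell from 4.61 to 6.55 CPM to 0 to 1.37 CPM, and Acvrl1, a receptor of the same family, rose from 0.89 to 2.79 CPM to 9.52 to 14.7 CPM.
For Acvrl1 the interaction of 4.47 (SE 0.63, adjusted p = 0.0025) was joined by unequal Y-WT HSC libraries, at 8.04, 2.34, 3.36 and 11.8 CPM on the joint scale, so that replicates 1 and 4 were high. The endothelial gene Kdr showed the same there, at 101, 34.3, 31.8 and 128 CPM. The share of these libraries in the interaction of both genes was not tested.

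The 5 genes with the smallest p among those more positive in TTPΔARE were Ciita, Clec9a, H2-Eb1, Naaa and Slc46a3, a lysosomal transporter, which rose from 13.5 to 16.1 CPM to 39.9 to 50.3 CPM and differed from WT by 2.31 (SE 0.25, adjusted p = 0.00027). Klf2, a quiescence factor, rose from 2.02 to 3.27 CPM to 12.2 to 17.5 CPM, a difference from WT of 3.77 (SE 0.44). Among the 5 more negative ones were Sox6, a repressor factor of the erythroid line, with 62.8 to 81.4 CPM in HSC and 28.0 to 34.5 CPM in MPP3 and a difference of -0.997 (SE 0.15, adjusted p = 0.0038), Tgfbr3, Prx (-1.23, SE 0.22) and Kcnab2 (-0.55, SE 0.11). Prx was called higher in Y-WT MPP3 and not called in TTPΔARE.

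Interferon-stimulated genes had no common direction, with 8 of 40 called higher and 6 lower, against 14.6% and 11.6% of all genes. Their median was -0.002, and the higher count was 4 without MPP3 replicate 1 and 5 without HSC replicate 1. Irf7, the factor that amplifies interferon, rose from 37.6 to 49.5 CPM to 73.4 to 120 CPM (1.06, SE 0.16) and differed from Y-WT by 1.04 (SE 0.19, adjusted p = 0.022). Mx1 did so by 1.94 (SE 0.39, adjusted p = 0.033). Neither passed with HSC and MPP3 paired by number within each genotype (adjusted p = 0.062 and 0.064). Isg15 rose (0.89, SE 0.21), Ifit1 fell (-0.69, SE 0.15), and Ifitm1 fell from 802 ± 41.6 to 357 ± 106 CPM (SD, n = 4). Ifi27l2a rose (2.58, SE 0.31) and Ifi44 fell (-0.87, SE 0.13).

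Of 22 immediate early genes 4 were called higher and 3 lower, against 14.6% and 11.6% of all genes. With the replicate number as a block 5 were called lower. Egr1, which restrains HSC cycling, measured 76.5, 67.1, 29.4 and 46.4 CPM in HSC and 20.1, 23.6, 17.2 and 10.8 CPM in MPP3 (-1.61, SE 0.31, adjusted p = 0.0052). Maff fell by 1.38 (SE 0.18) and Klf2 and Klf4 rose. Fos (1.40, SE 0.48), Jun (-0.36, SE 0.32) and Ier2 (-0.29, SE 0.21) did not pass, although Fos was called higher with the replicate block (adjusted p = 0.0054). All 3 were higher in replicate 1 than in replicates 3 and 4 of both cell types.

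Metabolic genes were called in part. Of 54 oxidative phosphorylation genes 13 were called higher and none lower (median 0.51), against 14.6% called higher of all genes, with 23 called higher under the replicate block, 34 by DESeq2 and 28 without MPP3 replicates 3 and 4 and HSC replicate 1 together. Without any 1 of the HSC libraries or MPP3 replicate 1 the count was 2 to 4, and without MPP3 replicate 3 it was 21. Cycs, cytochrome c, rose from 56.4 ± 3.40 to 149 ± 45.2 CPM and Cox5a from 117 ± 12.1 to 252 ± 101 CPM (SD, n = 4), whereas Ndufs1, Sdha and Cox4i1 were not called. Uqcrq (0.96, SE 0.22) and Atp5b of the ATP synthase (0.42, SE 0.11) rose too. Ndufa4 stood at 400, 320, 405 and 843 CPM in MPP3, with replicate 4, the library of the highest mitochondrial share, above the others.
Glycolysis genes were called higher for 7 and lower for 6 of 30, against 14.6% and 11.6% of all genes. The higher count was 3 without HSC replicate 1 and 4 without MPP3 replicate 1. Hk3, a myeloid hexokinase, rose by 1.498 (SE 0.13), Pdk4, which holds pyruvate out of the mitochondrion, fell by 3.36 (SE 0.43), and Ldha was at 975 ± 73.3 and 972 ± 132 CPM. Hk2 (0.32, SE 0.20), Pkm (0.18, SE 0.10) and Pfkp (0.18, SE 0.16) were not called, while Tigar rose (1.205, SE 0.28) and Pfkfb2 fell (-1.03, SE 0.25). Of 40 ribosome biogenesis genes 6 were called higher in TTPΔARE and 28 in Y-WT, with a median of 0.31 in TTPΔARE, while 14.6% of all genes were called higher in TTPΔARE and 24.7% in Y-WT. The TTPΔARE count was 1 without MPP3 replicate 1, 13 without MPP3 replicate 4, 13 by DESeq2 and 31 without MPP3 replicates 3 and 4 and HSC replicate 1 together. Ncl, nucleolin, measured 1173, 969, 1036 and 580 CPM in MPP3 against 727 to 837 CPM in HSC, so that replicate 4 alone was below the HSC libraries. Npm1 (0.55, SE 0.18), Fbl (0.37, SE 0.16) and Polr1b (-0.12, SE 0.19) were not called either, while Nhp2 (0.81), Ddx21 (0.71), Gnl3 (0.54) and Nop56 (0.50) were. With the replicate block Npm1 was called higher (adjusted p = 0.033). No member of this list was called in the interaction.

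The TTP decay machinery comprised 39 members of the ZFP36 family and its decay partners. Of these, 4 were called higher and none lower, against 14.6% and 11.6% of all genes, with a median of 0.12. In Y-WT 19 were called higher, against 24.7% of all genes, and no member was called in the interaction. By DESeq2 10 were called higher, and 16 were without MPP3 replicates 3 and 4 and HSC replicate 1 together. The 4 were Cnot8 and Cnot10 of the CCR4-NOT complex (both 0.32) and Ywhah and Ywhaq, 14-3-3 proteins of the family that binds phosphorylated TTP (0.59 and 0.44). With any 1 of the HSC libraries or MPP3 replicate 2 left out 1 was called, without MPP3 replicate 1 none, and without MPP3 replicate 4 the count was 8, and the replicate block gave 2 called lower. Under that block Cnot8 and Cnot10 did not pass (adjusted p = 0.060 and 0.059).

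Of 22 established TTP target mRNAs over the limit, 6 were called higher and 2 lower in MPP3, against 14.6% and 11.6% of all genes. The median was 0.18, and the lower count was 1 without HSC replicate 1, 3 or 4 or MPP3 replicate 1, 2 or 3. In Y-WT 8 members were called higher and 3 lower, against 24.7% and 13.1% of all genes. The first motif in the annotated 3′ UTR is shown in capitals for called members that held one and for Tnf. This sets the elements beside the direction of each message. The nonamer occurred 2 times in E2f1 and 5 times in Tnf. Only the heptamer was held by Il1r1 (2 times), Ier3 (4 times), Ccl3 (1 time) and Ccl4 (1 time). Listed targets that were not called held motifs too, such as Pim1 with 3 nonamers and Hif1a with 2.
E2f1, called higher, chr2:154560034-154560060, minus strand: atggagcgtTTATTTATTtatcgaggc
Il1r1, called higher, chr1:40314930-40314954, plus strand: cactgttggTATTTATagcacctac
Ccl3, called higher, chr11:83648005-83648029, minus strand: atttgtgacTATTTATtctgaaaga
Ccl4, called lower, chr11:83664544-83664568, plus strand: tatttctatTATTTATgttttagtt
Ier3, called lower, chr17:35822483-35822507, plus strand: tctaattaaTATTTATgtatttatg
Tnf, under the level limit, chr17:35199690-35199716, minus strand: ttgcacttaTTATTTATTatttattta
Ccl3, a chemokine, rose from 17.2, 14.4, 15.2 and 16.3 CPM in HSC to 25.0, 39.6, 24.7 and 34.6 CPM in MPP3 (0.98, SE 0.17, adjusted p = 0.0029), while its neighbour Ccl4 fell from 34.9, 37.7, 46.9 and 41.5 CPM to 18.9, 28.7, 16.1 and 23.4 CPM (-0.89, SE 0.18, adjusted p = 0.0074). So 2 neighbouring chemokine genes, each with 1 heptamer, went in opposite directions. Ier3, a stress response gene, fell from 43.0 ± 3.77 to 31.0 ± 3.18 CPM (SD, n = 4), and the interleukin 1 receptor Il1r1 rose by 1.92 (SE 0.19).
Myc, Tgfb1 and Cdkn1a, called higher, held neither motif in the annotated 3′ UTR. Tnf, the best known TTP target, stood at 0.89 to 1.52 CPM in HSC and 2.98 to 4.43 CPM in MPP3, with no overlap between the groups (1.66, SE 0.31, adjusted p = 0.0044), and was not called because its average lay below the level limit. Il1b was below it as well (adjusted p = 0.013), at 0 to 0.34 CPM in HSC and 13.6, 0.57, 4.77 and 1.31 CPM in MPP3, and Csf2 and the family member Zfp36l3 had too few counts to be tested. No member of this list was called in the interaction.

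Over all genes, 11573 of the 13358 genes above the level limit (86.6%) could be matched to an annotated 3′ UTR. The nonamer TTATTTATT, read on the transcript strand, was held by 923 of them (7.98%), and a further 2550 (22.0%) held the heptamer TATTTAT, which lies within the nonamer, but not the nonamer. Of all 20971 annotated 3′ UTRs, 7.61% held the nonamer and 27.5% the heptamer. The 27.5% includes UTRs that also held the nonamer, while the 22.0% above leaves these out. In the nonamer group 12.5% were called higher and 13.0% lower in MPP3 (median -0.02), and in the heptamer group 12.2% and 12.9% (median -0.01). Genes with neither had 16.7% called higher and 11.5% lower (median 0.09). The groups differed in length, with median 3′ UTRs of 2388, 2097 and 866 bases in the order given, and the part of length in these shares was not tested.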

How the data were processed

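Bone marrow HSC and MPP3 of young TTPΔARE and WT mice were sorted, RNA was purified with TRIzol and a column kit, and mRNA-seq libraries were sequenced. The labels and the study's methods name different SMART library kits, and which was used is not settled by the sources used here. The authors trimmed the reads with Cutadapt, aligned them with STAR to mm10 with an index built on GENCODE annotation and summed them over genes by featureCounts, whose handling of strand and of reads with several matches is not given in the sources used here. The deposited values are these raw counts, whole numbers for 55376 gene symbols per library, so that members of near-identical families and overlapping or antisense genes may share reads.

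From the counts, R 4.3.3 and edgeR 4.0.16 were used. Genes were kept by filterByExpr (minimum count 10, minimum total 15), libraries scaled by TMM, and MPP3 tested against HSC over the 8 TTPΔARE libraries by the quasi-likelihood F test with Benjamini-Hochberg adjustment over all genes kept. Calls needed a fold change over 1.2, an average log2 CPM over 1.5 and an adjusted p below 0.05. The adjusted p-values in the text are from this edgeR test unless another is named. Y-WT libraries were fitted alone in the same way. The interaction (MPP3 minus HSC in TTPΔARE, less the same in WT) was tested in 1 edgeR fit of the 16 young libraries, at an adjusted p under 0.05 with no limit on fold change. Standard errors (SE) are the absolute log2 fold change over the root of F. CPM of single libraries are TMM-scaled, over the 8 libraries or, where called the joint scale, over 16. The script was tested on simulated counts.

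The members and the gene lists were chosen with earlier results of these data known. The genes named are Zfp36, lead members of every list, up to 4 further called members per list without overlap between groups and with the largest change, the 10 largest rises and 10 largest falls among all such genes (without antigen receptor segments and unnamed gene models), and the 5 of smallest interaction p in each direction. Members of the lists drawn up after the values were seen, and a few others such as Igsf6, were added for their values. A few genes that this rule names are not reported here. Groups were taken from the library titles, and the labels' genotype field spells the allele TPPdeltaARE.

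Replicate numbers recur in the groups. Deviations from the group means of same-numbered HSC and MPP3 libraries of TTPΔARE correlated at r = 0.36, 0.16, 0.20 and 0.20 over genes, so the numbers were taken to pair them. Differently numbered libraries among replicates 1 and 2, or among 3 and 4, correlated at 0.15 to 0.18, and those across these pairs at -0.29 to -0.052, so that the pattern was mainly one of replicates 1 and 2 against 3 and 4. This pairing rests on the data, since the labels give the number alone.

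3′ UTRs were those of GENCODE on GRCm38, which is the assembly of mm10, in a release other than the one used for counting, with the longest per gene among basic protein-coding transcripts. DESeq2 1.42.0, other scalings, filters and limits, and each library left out in turn were tried as alternatives. The other 8 libraries of the series, from older mice, were not used here.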

Additional observations from a re-analysis of the deposited data

Results flagged for a closer look

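In 518 groups of 4 libraries (levels of the named genes and library measures, in HSC and in MPP3), 26 held 1 library that stood apart from the other 3 by more of the range than Dixon's 95% critical value allows, where chance gives about 1 in 20. The number of genes with a count was 28398 in HSC replicate 1 against 36533 to 38085, and the olfactory and vomeronasal receptor sum was 270.2 CPM in MPP3 replicate 3.

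In HSC, replicate 1 stood apart for Ifi44 (81.7 CPM), Ighm (17.2), Mcpt8 (0.055) and Ncam2 (5.32), and replicate 2 for Efna1 (25.7), Hoxa3 (13.9), Il10ra (11.7) and Mllt3 (262). Replicate 3 stood apart for Selp (49.3 CPM), and replicate 4 for Cdkn1a (4.63), Hlf (529) and Irf8 (15.4). In MPP3, replicate 1 stood apart for Rhag (1.55 CPM), replicate 2 for Rrm2 (131) and Txnip (1159), and replicate 3 for Camp (16.0), Klrd1 (7.76), Ncam2 (0.89), S100a8 (42.1) and Satb1 (74.1). Replicate 4 stood apart for Gpx1 (2427 CPM), Hoxb5 (2.75), Ndufa4 (843) and Tnfrsf1b (54.2). In all of these genes but Camp, HSC and MPP3 still did not overlap. For genes named by the rule that asked for no overlap, this was fixed in advance.

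The step from HSC to MPP3 differed between TTPΔARE and WT by the interaction test in 29 of the named genes, given here as the log2 difference of TTPΔARE less WT. Among MHC class II genes it was 3.25 for H2-Aa, 2.90 for H2-Ab1, 2.05 for H2-DMb2, 3.60 for H2-Eb1, 2.83 for Cd74 and 2.85 for Ciita. Among dendritic cell and monocyte genes it was 5.01 for Batf3, 2.42 for Ccr2, 4.60 for Clec9a, 2.94 for Id2, 2.29 for Igsf6, 2.96 for Irf8, 3.44 for Itgax, 3.83 for Naaa, 4.24 for Plbd1, 4.39 for Tlr3, 5.68 for Tlr13 and 5.13 for Xcr1. Of the interferon-stimulated genes Irf7 differed by 1.04 and Mx1 by 1.94. Acvrl1 (4.47), Cd36 (4.37), Kdr (4.69), Klf2 (3.77) and Slc46a3 (2.31) were also more positive in TTPΔARE, and Kcnab2 (-0.55), Prx (-1.23), Sox6 (-0.997) and Tgfbr3 (-1.27) more negative.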

How the results depend on the processing

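The 1949 genes called higher and 1551 called lower stayed within 1.5 times these counts under DESeq2 (2653 and 1903), the likelihood ratio test, other scalings, no filter on low counts, no level limit, antigen receptor segments left out and a fit over 16 libraries. A fold change over 2 gave 795 higher and 810 lower, and glmTreat against 1.2 gave 1258 higher. Leaving out 1 library gave 1193 to 2297 higher (1240 without HSC replicate 1, 1250 without HSC replicate 2, 1296 without HSC replicate 4 and 1193 without MPP3 replicate 1) and 1063 to 1716 lower. Without MPP3 replicates 3 and 4 and HSC replicate 1 together, a choice made after the data were seen, 3621 were called higher and 1639 lower. Lists whose count called higher moved by over 1.5 times in that fit and are not given above were TTP targets (6 to 11), interferon-stimulated genes (8 to 14), glycolysis (7 to 12), erythroid genes (3 to 5), mature B cell genes (1 to 5) and transport and detoxification genes (1 to 4). The causes were not tested, beyond the fewer libraries in each of these fits.

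The 113 genes of the interaction (101 more positive) were 333 by DESeq2 (262 more positive, 1878 at an unadjusted p under 0.05), 202 by the likelihood ratio test, 136 with RLE scaling and 66 to 132 with 1 library left out, the lowest without Y-WT HSC replicate 4. The cause was not tested.

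The replicate block over HSC and MPP3 gave 2049 genes higher and 1722 lower, and it changed no call of a named gene or count of a list by more than 1.5 times beyond those given above. A block added after the data were seen, which paired HSC with MPP3 of the same number within each genotype, called 111 genes in the interaction, 82 of them shared. Batf3, Igsf6, Irf7, Kcnab2, Kdr, Mx1 and Tlr13 did not pass in it (adjusted p = 0.052 to 0.076). In WT same-numbered HSC and MPP3 libraries correlated at 0.031 to 0.15, against 0.34 for HSC replicate 3 with MPP3 replicate 1. The pairing by number was thus not shown in WT. Where a block instead paired WT with TTPΔARE libraries of the same number, 87 interaction genes were called, 76 of them shared, and Cd36, Irf7, Kcnab2, Mx1 and Prx were not among them. These numbers did not pair the genotypes, with same-number correlations of -0.10 to 0.22.

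For the 254 named genes, 4696 of 5080 log2 fold changes under alternatives kept direction and call, 281 lost the call, 55 gained it and 48 changed sign. Those that changed sign were not called. By library totals alone these were Abcb1b (-0.064), Cd79a (-0.12), Hoxa9 (-0.052), Itga4 (-0.13), Prx (-0.060), Sdha (-0.048) and Zfp36 (-0.11), and with upper quartile scaling Cd79a (-0.042), Itga4 (-0.046) and Zfp36 (-0.018). Without a filter they were Cd79a (-0.031), Itga4 (-0.044) and Zfp36 (-0.00254), in the fit of 16 libraries Cd79a (-0.022) and Itga4 (-0.036), with the block Cd79a (-0.22), and with DESeq2 and RLE scaling Ldha (0.014 under each). With 1 library left out, values ran from -0.16 to 0.50 for Ccnd1, -0.64 to 0.39 for Cd79a, -0.052 to 0.12 for Itga4, -0.83 to 0.18 for Jchain, -0.065 to 0.069 for Ldha and -0.15 to 0.095 for Ly6a. They ran from -0.30 to 0.038 for Polr1b, -0.036 to 0.23 for Prx, -0.56 to 0.17 for Rag1, -0.22 to 0.046 for Tgfbr2, -0.38 to 0.20 for Tlr6 and -0.043 to 0.13 for Zfp36.

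Of the 203 called named genes, 44 lost the call without some 1 library, with adjusted p up to 0.217, and kept their direction, and 14 others gained one. Without 4 or more single libraries each this held for Atp5b, Cnot8, Cnot10, Cxcr4, Ermap, Gfi1, Gstm1, Hbb-bt, Hoxa5, Hoxa10, Hoxb3, Ier3, Ighm, Klf4, Klrd1, Lrrc32, Myc, Nhp2, Rag2, S100a8, Tnfrsf1b and Ywhaq. For the rest it held without HSC replicate 1 for Anxa1, Cdkn2c, Gpx1, Mfsd2b, Mmp9, Ndufa4, Treml1 and Uqcrq, and without HSC replicate 2 for Cd36, Gpx1, Hlf, Il2rb, Kcnab2, Mmp9, Osmr, Rb1, Tfrc and Uqcrq. It held without HSC replicate 3 for Mfsd2b, Osmr and Treml1, and without HSC replicate 4 for Cd36, Hlf, Isg15, Kcnab2, Osmr, Rb1 and Treml1. It held without MPP3 replicate 1 for Cd22, Cd36, Cma1, Gnl3, Gpx1, Hlf, Hoxa3, Isg15, Mmp9, Nop56, Tfrc, Uqcrq and Ywhah, without MPP3 replicate 2 for Cd22, and without MPP3 replicate 4 for Cma1. In Cd22, Cma1, Klf4, Osmr, Rag2 and Treml1 the adjusted p stayed below 0.05 and the average level fell under its limit.

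At depths of 28633531 to 36142535 counts, genes with an average below the level limit were not called, whatever their adjusted p, and without that limit 2106 genes were higher and 1837 lower.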
